A study of Rattus norvegicus with 24 samples.

Results

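Most of the genes described here carry interleukin-6 (IL-6) family signals from the cell surface to the nucleus, and the others are feedback or response genes. All were followed in the medial gastrocnemius of rats with and without cardiac cachexia (CC). They were found by matching 10 gene symbols to the table of estimated counts, namely the receptor genes Il6r, Il6st, Osmr and Lifr, the kinase genes Jak1 and Jak2, the transcription factor gene Stat3, the feedback genes Socs2 and Socs3, and the serine/threonine kinase gene Pim3. Of the 10 symbols, 9 were among the 10851 genes of the table, and Socs3 was not analysed here. The left medial gastrocnemius of 24 male Wistar rats was sequenced, 1 library per rat, with 6 rats in each of 4 groups. Sed rats received saline and stayed sedentary. Ex rats received saline and ran on a treadmill for 30 min, 5 times per week, for 4 weeks. CC-Sed and CC-Ex rats received a single injection of monocrotaline at 60 mg per kg, a plant alkaloid that damages the vessels of the lung and leads to failure of the right heart, and the CC-Ex rats followed the same training. Rats given monocrotaline were kept in the study when the right ventricle was hypertrophied, so the CC groups hold the survivors that showed it. All groups, the sedentary ones included, had run a maximal exercise test, and tissue was taken at least 48 h after the last test. The RNA came from the whole muscle, in which fewer cells of a type and less RNA per cell cannot be told apart.

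Total counts per rat lay between 37816239 and 50350554, with a median of 42891611. Values below are read counts scaled to library size (CPM), after the libraries were aligned on the bulk of their genes by TMM. CPM carries no correction for gene length, so levels were compared between rats and not between genes. Of 7 myofibre markers, 6 were in the table, and together they held between 98550 and 212000 CPM in each rat. The library of CC-Ex replicate 5 stood apart. Its log2 CPM correlated with the rest of its group at a median r of 0.901, against 0.951 to 0.982 for the other rats, and results that it moves are given with and without it.

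Cytokines of the IL-6 family bind a receptor of their own and then recruit a shared chain, gp130, the product of Il6st. Kinases of the JAK family, held on the inner side of these receptors, phosphorylate STAT3, which moves to the nucleus and switches on target genes. Among the targets are SOCS proteins, which bind the receptors or kinases and close the loop. In skeletal muscle this pathway is known for its part in inflammation, in repair by satellite cells and in wasting during chronic disease.

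To investigate the effect of CC, each gene was compared between Sed and CC-Sed, between Ex and CC-Ex, and with both differences averaged. The averaged effect was computed from the same 24 rats as the other comparisons and is not a separate line of evidence. A gene was counted as a differentially expressed gene (DEG) with an edgeR adjusted p-value under 0.05, over all 10851 genes, together with an absolute Log2FC of 1 or more. In Sed vs. CC-Sed, 4 of the 9 genes were DEGs, with Il6r, Osmr and Pim3 upregulated and Socs2 downregulated, where 1.8% of all genes were DEGs, 1.35% upregulated and 0.452% downregulated. In Ex vs. CC-Ex, Il6r and Pim3 were upregulated DEGs and the other 7 genes were not DEGs, where 0.516% of all genes were and 0.433% were upregulated. For the averaged effect, Il6r and Pim3 were upregulated and Socs2 was downregulated, against 2.88% of all genes, 2.06% upregulated and 0.829% downregulated. At the adjusted p-value alone, which 27.8% of all genes passed in this effect, Osmr, Jak2 and Il6st passed as well. The median Log2FC of the 9 genes was 0.56 in Sed vs. CC-Sed, 0.49 in Ex vs. CC-Ex and 0.66 for the averaged effect, and over all genes it was 0.02, 0.01 and 0.01.

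**Figure D1:**
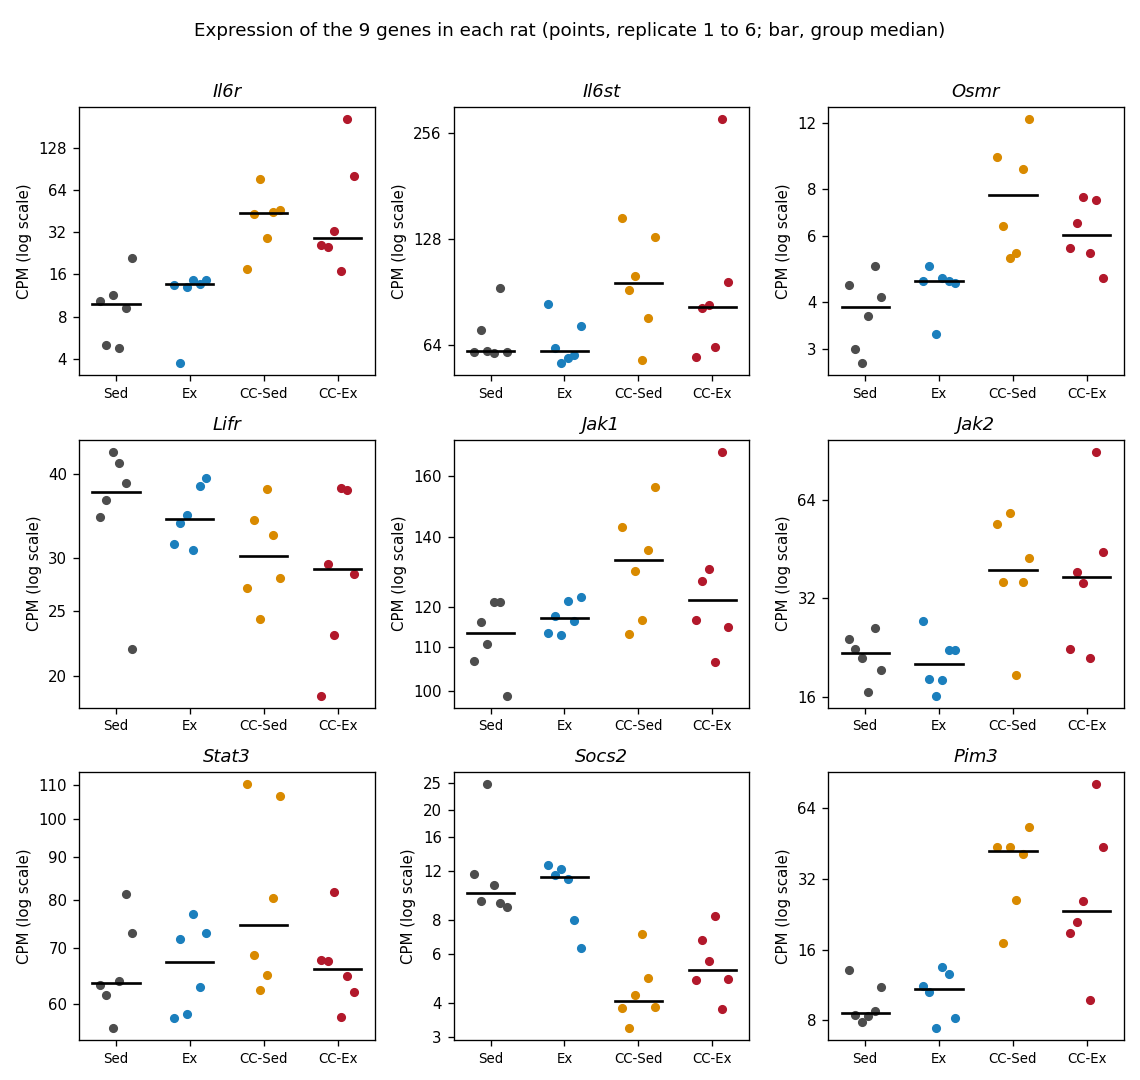
Each panel plots the CPM of a gene on a log scale for every rat, with the 6 rats of each group as points from replicate 1 to 6 and the group median as a bar. For Pim3 and Osmr, 11 of 12 CC rats were above every saline rat, and for Socs2, 9 of 12 CC rats were below every saline rat. The share of all genes with such counts was not computed.

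Il6r codes for the receptor that binds IL-6 itself. Its level in Sed rats was 4.80 CPM at the lowest, 9.78 at the median and 21.0 at the highest, and in CC-Sed rats it was 17.6, 43.8 and 76.7 CPM. The groups overlapped through Sed replicate 6 alone, which lay above the lowest CC-Sed rat. Il6r was upregulated by a Log2FC of 2.06 (SE 0.54, edgeR adjusted p = 0.0293), with 6 of 6 CC-Sed values higher than the Sed median. The call held in 6 of 12 fits with a rat removed, with an adjusted p-value between 0.0175 and 0.0761, and it was lost without Sed replicate 2, 3, 4 or 5 and without CC-Sed replicate 3 or 6.

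In exercised rats, Il6r lay between 3.72 and 14.7 CPM in Ex, with a median of 13.6, and between 16.9 and 205 CPM in CC-Ex, with a median of 29.3. Every CC-Ex rat was above every Ex rat, as was the case for 0.737% of all genes. The Log2FC was 2.40 (SE 0.54, edgeR adjusted p = 0.0363). The value of 205 CPM belonged to CC-Ex replicate 5, and the next CC-Ex rat, replicate 6, had 81.0 CPM. Without replicate 5, the Log2FC was 1.56 and the adjusted p-value 0.128 and the gene was no longer a DEG. The call was also lost without replicate 6 and without any of the 6 Ex rats. It was lost with upper-quartile normalization (adjusted p = 0.0551), with only the 12 rats compared (adjusted p = 0.175) and with a replicate block (adjusted p = 0.0772). The averaged effect of 2.23 (SE 0.38, edgeR adjusted p = 0.000685) remained a DEG in 24 of 24 fits that left out 1 rat, at 1.80 without CC-Ex replicate 5.

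Osmr codes for the chain that pairs with gp130 to receive oncostatin M. In Sed rats its lowest, median and highest values were 2.75, 3.90 and 5.00 CPM, and in CC-Sed rats they were 5.26, 7.73 and 12.3 CPM. Every CC-Sed rat was above every Sed rat, a separation found for 2.32% of all genes. Osmr was upregulated by a Log2FC of 1.07 (SE 0.20, edgeR adjusted p = 0.00625). This lies close to the fold minimum, and the gene was no longer a DEG without Sed replicate 3 or without CC-Sed replicate 1 or 6, with a Log2FC of 0.89 at the lowest. With upper-quartile normalization it was 0.98, also under the minimum, with an adjusted p-value of 0.00914.

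In exercised rats, Osmr ranged from 3.30 to 4.99 CPM in Ex (median 4.56) and from 4.65 to 7.63 CPM in CC-Ex (median 6.03). Among the CC-Ex rats, replicate 6 alone was within the Ex range. The Log2FC was 0.49 (SE 0.20, edgeR adjusted p = 0.155). The exercised effect minus the sedentary one was -0.58 (SE 0.28), with an unadjusted edgeR p of 0.0479 and an adjusted p of 1.00. The averaged effect was 0.78 (SE 0.14, edgeR adjusted p = 0.000912), past the adjusted threshold and below the fold minimum.

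Il6st, which codes for gp130, had a median of 61.3 CPM in Sed and 96.0 CPM in CC-Sed, with ranges of 60.7 to 93.0 and 57.8 to 146.6 CPM. In Ex and CC-Ex the medians were 61.3 and 82.1 CPM, with ranges of 56.7 to 83.3 and 58.9 to 280 CPM. The groups overlapped in both comparisons, and 5 of 12 CC rats were above every saline rat. The Log2FC was 0.56 (SE 0.30, edgeR adjusted p = 0.213) in sedentary rats and 0.75 (SE 0.30, edgeR adjusted p = 0.151) in exercised rats. Only their average, 0.66 (SE 0.21, edgeR adjusted p = 0.0253), passed the adjusted threshold. CC-Ex replicate 5 held the value of 280 CPM, and without it the exercised Log2FC was 0.21 and the average 0.37 (adjusted p = 0.0398). The average did not pass without CC-Sed replicate 1 (0.56, adjusted p = 0.0563) or without CC-Sed replicate 6 (0.59, adjusted p = 0.0519).

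Lifr codes for the chain that receives leukaemia inhibitory factor. The medians were 37.7 CPM (Sed) and 34.3 CPM (Ex) in saline rats and 30.2 CPM (CC-Sed) and 28.9 CPM (CC-Ex) in CC rats, and its values over all rats spanned 18.7 to 43.2 CPM. The CC and saline rats overlapped, and 1 CC rat was below every saline rat. The Log2FC was -0.24 (SE 0.17, edgeR adjusted p = 0.354) in sedentary rats and -0.25 (SE 0.17, edgeR adjusted p = 0.354) in exercised rats. The averaged effect was -0.24 (SE 0.12, edgeR adjusted p = 0.118). Of the receptor genes described here, Lifr had the only negative Log2FC in all 3 comparisons, and it did not pass the threshold in any of them.

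Jak2, a kinase used by gp130 and by the receptors for growth hormone and erythropoietin, had a median of 21.8 CPM in Sed and 39.2 CPM in CC-Sed. The Sed range was 16.5 to 26.0 CPM and the CC-Sed range 18.7 to 58.3 CPM, and CC-Sed replicate 4 was the only CC-Sed rat within the Sed range. In Ex the values lay between 16.2 and 27.4 CPM (median 20.2) and in CC-Ex between 21.0 and 89.6 CPM (median 37.2). Over both comparisons, 9 of 12 CC rats were above every saline rat. The Log2FC was 0.92 (SE 0.28, edgeR adjusted p = 0.0534) in sedentary rats and 1.02 (SE 0.28, edgeR adjusted p = 0.0692) in exercised rats. The average of 0.97 (SE 0.20, edgeR adjusted p = 0.00239) passed the adjusted threshold and fell just short of the fold minimum. Without CC-Sed replicate 4, Jak2 met both criteria in Sed vs. CC-Sed (Log2FC 1.07, adjusted p = 0.0149). With DESeq2 it met them in Ex vs. CC-Ex (1.02, adjusted p = 0.0155). In the other direction, the removal of CC-Ex replicate 5, at 89.6 CPM, left an exercised Log2FC of 0.63 (adjusted p = 0.229) and an average of 0.76 (adjusted p = 0.00234).

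Jak1, the kinase on which signalling through gp130 mainly depends, varied little. Saline rats ranged from 98.9 to 121 CPM in Sed (median 113) and from 113 to 123 CPM in Ex (median 117). CC rats ranged from 113 to 156 CPM when sedentary (median 133) and from 107 to 169 CPM when exercised (median 122). There were 7 CC rats above every saline rat, with CC-Ex replicate 5 the highest of all, and both comparisons overlapped. The Log2FC was 0.24 (SE 0.10, edgeR adjusted p = 0.132) in sedentary and 0.12 (SE 0.10, edgeR adjusted p = 0.476) in exercised rats, and the average was 0.18 (SE 0.07, edgeR adjusted p = 0.0646). Jak1 passed the threshold in none of these comparisons, and without CC-Ex replicate 5 its exercised Log2FC was 0.01 and its average 0.11.

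The mRNA of Stat3, the transcription factor on which these receptors converge, lay between 56.2 and 81.3 CPM in Sed (median 63.6) and between 62.4 and 110 CPM in CC-Sed (median 74.6). Exercised rats had 57.8 to 77.0 CPM after saline (median 67.4) and 57.9 to 81.7 CPM after monocrotaline (median 66.2). CC-Sed replicates 1 and 6, at 110 and 107 CPM, were far above the other CC-Sed rats, and the other 4 lay within the Sed range. The Log2FC was 0.31 (SE 0.14, edgeR adjusted p = 0.151) in sedentary rats, 0.003 (SE 0.14, edgeR adjusted p = 0.991) in exercised rats and 0.15 (SE 0.10, edgeR adjusted p = 0.23) on average. The amount of Stat3 mRNA gives no measure of the phosphorylated protein, which was not analysed here.

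**Figure D2:**
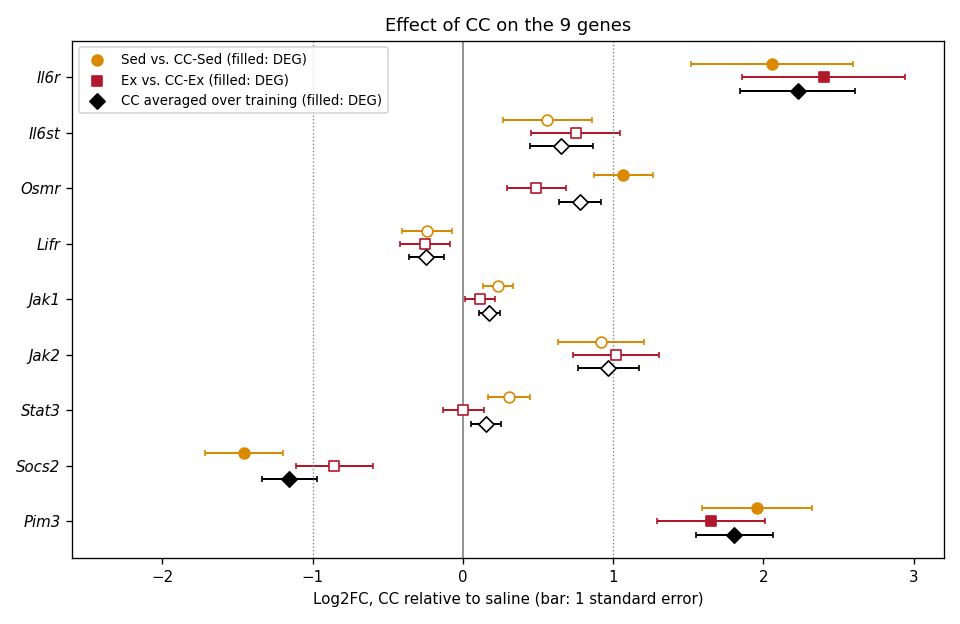
The plot gives the Log2FC of each gene, CC relative to saline, on the horizontal axis for the sedentary comparison, the exercised comparison and their average, with 1 standard error as a bar. Filled symbols mark DEGs, dotted lines mark a Log2FC of 1 in size, and Il6r and Pim3 are filled in all 3 comparisons. Their exercised calls were lost without CC-Ex replicate 5 or 6, with any single Ex rat removed and under the alternatives named in the text.

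Socs2 codes for a suppressor of cytokine signalling whose main known target is the growth hormone receptor, and its own transcription is known to follow STAT5. In Sed rats it ranged from 8.88 to 24.8 CPM with a median of 10.0, and in CC-Sed rats from 3.24 to 7.12 CPM with a median of 4.06. Every CC-Sed rat was below every Sed rat, as for 1.29% of all genes. The Log2FC was -1.45 (SE 0.26, edgeR adjusted p = 0.00502). The highest Sed value, of replicate 3, was far above the next of 11.7 CPM, and without this rat the Log2FC was -1.13 and Socs2 was still a DEG, as in all 12 fits that left out 1 rat of this comparison.

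In exercised rats, Socs2 lay between 6.30 and 12.6 CPM in Ex (median 11.4) and between 3.80 and 8.25 CPM in CC-Ex (median 5.28). The groups overlapped, since Ex replicates 5 and 6, at 7.98 and 6.30 CPM, were below the highest CC-Ex rat. The Log2FC was -0.86 (SE 0.26, edgeR adjusted p = 0.0821) and did not pass the threshold. The interaction, the exercised minus the sedentary effect, was 0.60 (SE 0.36, edgeR adjusted p = 1.00), so that a difference between the effects was not shown. The averaged effect was -1.15 (SE 0.18, edgeR adjusted p = 0.00037). Of 12 CC rats, 9 were below every saline rat, and the averaged effect was a DEG in 23 of 24 fits that left out 1 rat. Without Sed replicate 3 it was -0.995, just under the fold minimum.

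Pim3 codes for a serine/threonine kinase of the PIM family, whose members are transcribed in response to JAK and STAT signals. Its lowest, median and highest values were 7.91, 8.59 and 13.1 CPM in Sed and 17.0, 42.1 and 53.3 CPM in CC-Sed. As for 2.32% of all genes, every CC-Sed rat was above every Sed rat. Pim3 was upregulated by a Log2FC of 1.96 (SE 0.36, edgeR adjusted p = 0.00636), and this call held in 12 of 12 fits that left out 1 rat.

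In exercised rats, Pim3 ranged from 7.43 to 13.5 CPM in Ex (median 10.9) and from 9.76 to 80.7 CPM in CC-Ex (median 23.3). CC-Ex replicate 4, at 9.76 CPM, was the only CC rat within the saline range. The Log2FC was 1.65 (SE 0.36, edgeR adjusted p = 0.0337), and it was 1.15 (adjusted p = 0.0983) without CC-Ex replicate 5, which held the value of 80.7 CPM. The exercised call held in 4 of 12 fits with a rat removed, and was lost without any Ex rat and without CC-Ex replicate 5 or 6. The same alternatives as for Il6r ended it, with adjusted p-values of 0.052, 0.175 and 0.0772. The averaged effect was 1.80 (SE 0.26, edgeR adjusted p = 0.000236) and was a DEG in 24 of 24 such fits, with a Log2FC of 1.54 without CC-Ex replicate 5.

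Across the saline and the monocrotaline rats, no gene of the 9 separated all 12 CC rats from all 12 saline rats, as 0.138% of all genes did. Pim3 and Osmr came closest, with 11 of 12 CC rats above every saline rat, followed by Il6r with 10. The share of all genes with such partial counts was not computed, so these counts, here and above, are a description. In CC-Ex replicate 5, Il6r, Il6st, Jak1, Jak2 and Pim3 reached the highest level of all 24 rats. The Osmr and Stat3 levels of this rat, 7.48 and 64.9 CPM, were within the range of the other CC-Ex rats. Its Socs2 level, 3.80 CPM, was the lowest in its group.

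To assess the effect of training, the same genes were compared between Sed and Ex and between CC-Sed and CC-Ex. None of the 9 genes was a DEG in either comparison or in the interaction, with edgeR or with DESeq2, and no gene of the whole table was a DEG in them (0%). Between Sed and Ex, the Log2FC of the 9 genes lay between -0.27 for Socs2 and 0.25 for Il6r, and 0 of them had an unadjusted edgeR p under 0.05, which 1.07% of all genes had. Between CC-Sed and CC-Ex, it lay between -0.37 for Osmr and 0.59 for Il6r. Stat3 had an unadjusted edgeR p of 0.0421 there, with a Log2FC of -0.30 (SE 0.14), while 2.14% of all genes were under 0.05. For the interaction, Osmr alone was under 0.05, as were 1.41% of all genes. The Il6r, Il6st and Jak2 differences between CC-Sed and CC-Ex changed sign without CC-Ex replicate 5, from 0.59 to -0.23 for Il6r, from 0.14 to -0.37 for Il6st and from 0.04 to -0.31 for Jak2.

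The covariation of the genes was examined in the 24 rats after each group's mean log2 CPM was subtracted, so that differences between group means did not enter. Differences in spread between the groups were not removed. Of the 36 pairs among the 9 genes, 11 had a Benjamini-Hochberg adjusted permutation p under 0.05 for Pearson's r, 10 of them positive. Pairs of other genes were not tested in this way, so the share usual in these rats is not known. By Spearman's rho 4 pairs passed, 3 of them among the 11, and the fourth was Jak1 with Stat3 (rho = 0.617, permutation p = 0.00451, adjusted p = 0.0406, and r = 0.491, permutation p = 0.029, adjusted p = 0.0804). Its r was 0.597 without the 2 rats farthest from the Jak1 median. The strongest was Il6st with Jak2, at r = 0.894 (permutation p = 1e-05, the smallest that the permutations can give, adjusted p = 0.00036) and Spearman's rho = 0.841 (permutation p = 1e-05, adjusted p = 0.00036). Without the 2 rats farthest from the Il6st median, r was 0.829. Within the saline rats it was 0.763 and within the CC rats 0.911.

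Osmr and Stat3 formed the next pair, at r = 0.83 (permutation p = 3e-05, adjusted p = 0.00054) and rho = 0.837 (permutation p = 6e-05, adjusted p = 0.00108). Without the 2 rats farthest from the Osmr median, r was 0.752, and it was 0.725 within the saline and 0.877 within the CC rats. Of the 11 pairs, Il6st with Jak2 and Osmr with Stat3 were the ones that passed without CC-Ex replicate 5 as well, with r = 0.838 (adjusted p = 0.00126) and r = 0.858 (adjusted p = 0.00036). The other 9 pairs, among them Jak2 with Pim3 (r = 0.739, rho = 0.643, permutation p = 0.00391 and 0.00333, adjusted p = 0.0352 and 0.04), did not pass without that rat. The r of Jak2 with Pim3 was 0.577 without the 2 rats farthest from the Jak2 median, and 0.586 (adjusted p = 0.158) without replicate 5. Within the saline rats, the r of these 9 pairs lay between -0.335 for Jak1 with Pim3 and 0.362 for Il6st with Jak1. Within the CC rats, the positive pairs among them lay between 0.71 for Il6r with Jak2 and 0.839 for Il6st with Jak1. Il6st with Socs2 was at -0.256 within the saline and -0.698 within the CC rats. The negative pair was Il6st with Socs2, at r = -0.479 (permutation p = 0.0117, adjusted p = 0.046) and rho = -0.522 (permutation p = 0.00994, adjusted p = 0.0596), with r = -0.409 without the 2 rats farthest from the Il6st median.

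**Figure D3:**
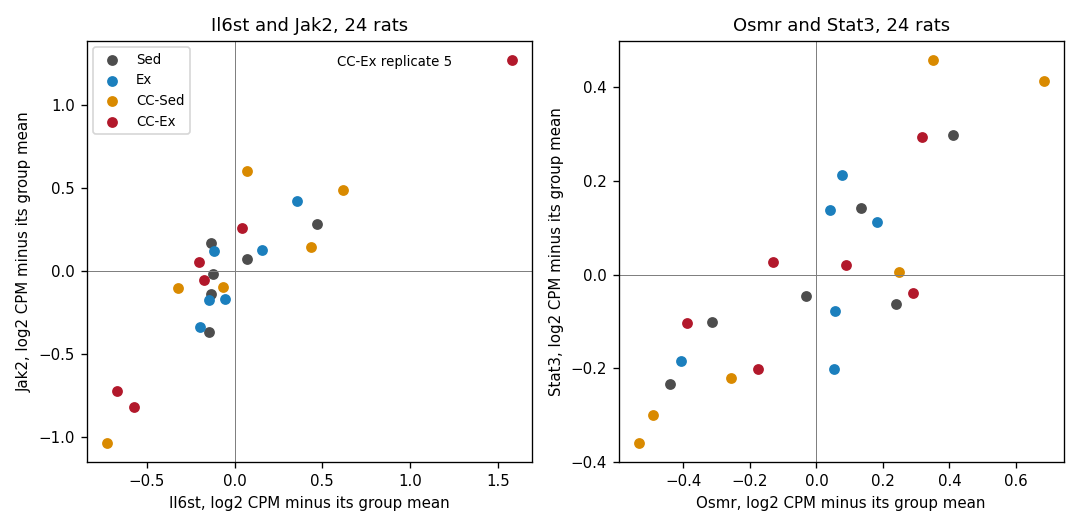
Each point is a rat, placed by its log2 CPM minus the mean of its group, for Il6st (horizontal) and Jak2 (vertical) on the left and for Osmr and Stat3 on the right, with colours for the 4 groups. CC-Ex replicate 5 lies at the far end for Il6st and Jak2 but inside the range of the other rats for Osmr and Stat3.

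STAT proteins bind DNA at palindromes of the form TTCNNNGAA, where N is any base. The bases around the start of transcription were searched for this element on both strands, which are alike for a palindrome, in RefSeq promoters of build GRCr8 that hold 250 bases before and 50 after the start. Entries were matched by symbol for 7 of the 9 genes. Where a symbol had several entries, the first was used for genes of the count table, and the share over all promoters counts every entry. Jak1 and Socs2 had none in the table used. The element was in 0 of these 7 promoters, while 8.87% of all 33469 promoters and 6.67% of those of genes in the count table held it. This says only that these letters are not in these windows. Printed 5′ to 3′ in lower case are the promoters of Il6r and Pim3, the upregulated genes of both CC comparisons, and that of Cish, a member of the same inhibitor family as Socs2 and a standard target of STAT5. Capitals mark the element.
Il6r, chr2:177645160-177645459, minus strand: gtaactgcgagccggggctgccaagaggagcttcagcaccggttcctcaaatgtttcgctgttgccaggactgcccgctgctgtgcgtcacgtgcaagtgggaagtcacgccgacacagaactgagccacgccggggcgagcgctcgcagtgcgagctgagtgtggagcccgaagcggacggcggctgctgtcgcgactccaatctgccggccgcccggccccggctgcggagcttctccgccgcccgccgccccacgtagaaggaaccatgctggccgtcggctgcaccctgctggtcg
Pim3, chr7:121832795-121833094, plus strand: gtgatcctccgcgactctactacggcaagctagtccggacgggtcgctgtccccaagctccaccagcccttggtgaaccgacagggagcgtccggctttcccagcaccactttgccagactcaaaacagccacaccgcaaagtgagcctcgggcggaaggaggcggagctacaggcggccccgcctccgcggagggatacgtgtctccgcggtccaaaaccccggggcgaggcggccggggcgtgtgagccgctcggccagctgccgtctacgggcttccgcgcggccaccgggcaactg
Cish, chr8:116850719-116851018, plus strand: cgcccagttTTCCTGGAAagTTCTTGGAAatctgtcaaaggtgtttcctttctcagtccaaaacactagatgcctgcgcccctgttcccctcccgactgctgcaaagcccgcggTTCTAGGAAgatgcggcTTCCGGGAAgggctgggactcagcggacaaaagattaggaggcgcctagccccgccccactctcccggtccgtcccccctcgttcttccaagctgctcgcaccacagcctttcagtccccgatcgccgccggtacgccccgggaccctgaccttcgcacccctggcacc
The Cish promoter held 4 elements, whose first bases lay at positions -241, -230, -136 and -119 from the start. The receptor genes Il6r, Il6st, Osmr and Lifr all had their entries on chromosome 2.

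Cish, which like Socs2 dampens signalling by cytokine and growth hormone receptors, had lower values in CC rats than in saline rats. Its lowest, median and highest values were 5.63, 29.5 and 134 CPM in Sed and 1.22, 4.78 and 12.8 CPM in CC-Sed. In Ex they were 0.848, 16.2 and 78.2 CPM, and in CC-Ex 0.305, 7.90 and 25.9 CPM. The groups overlapped in both comparisons. The averaged effect was a DEG, with a Log2FC of -2.19 (SE 0.70, edgeR adjusted p = 0.0252), in 22 of 24 fits with a rat removed but not without Sed replicate 3 or Ex replicate 3, and the sedentary and exercised differences were -2.88 (adjusted p = 0.0792) and -1.49 (adjusted p = 0.344).

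Other inhibitors of the pathway were followed as a list of 15 genes of the SOCS, PIAS and phosphatase families, of which 12 were in the table. Cish was the only DEG among them, in the averaged effect. At the adjusted threshold alone, which 27.8% of all genes passed, 4 of the 12 passed, with Ptpn2 (0.47) and Pias4 (0.41) higher and Cish and Socs5 (-0.30) lower. Without CC-Ex replicate 5, Ptpn2 was at 0.28 (adjusted p = 0.0555) and Pias4 at 0.24 (adjusted p = 0.0296). Ptpn2 codes for a phosphatase that removes phosphate from JAK1 and STAT proteins, and Pias4 for a SUMO ligase of the family that restrains STATs. The median Log2FC of this list was 0.02.

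The growth hormone and STAT5 axis, the pathway for which Socs2 is best known, was represented by 7 of 11 listed genes. In Sed vs. CC-Sed, Igf1 and Irs1 were downregulated DEGs and Igf1r was an upregulated DEG, against 0.452% and 1.35% of all genes. Igf1, the growth factor induced by growth hormone, had a CC-Sed median of 2.86 CPM against 7.27 CPM in Sed (Log2FC -1.07, SE 0.24, edgeR adjusted p = 0.0157). The Log2FC was -1.48 (SE 0.44, edgeR adjusted p = 0.0486) for Irs1, an adaptor of the insulin and IGF-1 receptors, and 1.45 (SE 0.38, edgeR adjusted p = 0.0311) for the receptor gene Igf1r. With a rat removed, the call held in 11 of 12 fits for Igf1 (not without CC-Sed replicate 3), in 4 for Igf1r and in 3 for Irs1. In the averaged effect, Igf1r was at 1.26 and, without CC-Ex replicate 5, at 0.94, under the fold minimum. Irs1 was a DEG there too, at -1.10 (edgeR adjusted p = 0.0138), in 22 of 24 fits with a rat removed. That call was lost without Sed replicate 3 or Ex replicate 2. Igf1 was at -0.996 (edgeR adjusted p = 0.000691), just under the fold minimum. None of the 7 was a DEG in Ex vs. CC-Ex, where Igf1 had a Log2FC of -0.92 (edgeR adjusted p = 0.0575). Stat5a passed the adjusted threshold in the averaged effect at -0.78 (SE 0.24, edgeR adjusted p = 0.0198), and Stat5b did not (0.32, adjusted p = 0.0977). Ghr, the growth hormone receptor gene, had an averaged Log2FC of -0.17 (adjusted p = 0.393).

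For the cytokines themselves, 5 of 10 listed ligand genes of the family were in the table, Clcf1, Ctf1 and Cntf among them. None was a DEG with edgeR, and 3 had an unadjusted p under 0.05 in the averaged effect, where 42.3% of all genes did. Clcf1, a ligand of the ciliary neurotrophic factor receptor, had an averaged Log2FC of 0.45 (SE 0.17, edgeR adjusted p = 0.057), Ctf1 of 0.27 (adjusted p = 0.0861) and Cntf of -0.35 (adjusted p = 0.0582). The ligand genes Il6, Lif, Osm, Il11 and Il27 were not analysed here. Of 6 further receptor genes, 2 were in the table. Il11ra1, the receptor of interleukin-11, was higher in CC at 0.32 (SE 0.09, edgeR adjusted p = 0.0148), and Cntfr had a Log2FC of -0.08 (adjusted p = 0.874). Apart from Stat5a, none of the 6 other JAK and STAT genes in the table passed the adjusted threshold, with Tyk2 at -0.20 (adjusted p = 0.0632) and Stat4 at -0.32 (adjusted p = 0.225).

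A list of 27 genes that STAT3 is known to induce was used to follow the targets, and 21 of them were in the table. In the averaged effect, 6 were upregulated DEGs and 1 was downregulated, where 2.06% and 0.829% of all genes were. These were Mt2A (Log2FC 5.92), Maff and Cebpd (2.63 each), Myc (2.52), Bcl2l1 (1.62), Lcn2 (1.12) and Ccnd1 (-1.37). Without CC-Ex replicate 5, Mt2A was at 4.16, Maff at 2.13, Myc at 1.64 and Bcl2l1 at 0.98, which is under the fold minimum. Lcn2 was under it without CC-Sed replicate 2 or CC-Ex replicate 6, and the other 5 calls held in 24 of 24 fits with a rat removed. The median Log2FC of the list was 0.34 in this effect, 0.58 in Sed vs. CC-Sed and 0.17 in Ex vs. CC-Ex, against 0.01, 0.02 and 0.01 over all genes. Many of these genes answer to other signals too, such as glucocorticoids or stress kinases, so that the list is not specific for STAT3. Like the other lists, it was chosen with earlier results of these data known, so its counts are a description.

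Cebpd codes for C/EBP delta, a transcription factor that acts with STAT3 on acute-phase genes. Its lowest, median and highest values were 7.03, 8.45 and 24.0 CPM in Sed and 25.6, 72.9 and 126 CPM in CC-Sed, without overlap, as for 2.32% of all genes. The Log2FC was 2.58 (SE 0.58, edgeR adjusted p = 0.0148) in sedentary rats and 2.67 (SE 0.58, edgeR adjusted p = 0.0337) in exercised rats. Maff, a small transcription factor of the MAF family, and Mt2A, a metallothionein, were the other DEGs of the list in each of these comparisons. Mt2A varied most between rats, with 1.67 to 338 CPM in sedentary and 1.59 to 1295 CPM in exercised CC rats, against 1.13 to 5.39 CPM in Sed and 0.587 to 4.51 CPM in Ex, so that the groups overlapped. The exercised calls of Cebpd, Maff and Mt2A each held in 4 of 12 fits with a rat removed. They were lost without any of the 6 Ex rats and without CC-Ex replicate 5 or 6. Without replicate 5, Mt2A was at 3.09 in place of 6.56 and Maff at 1.63 in place of 2.60. The sedentary calls held in 12 of 12 fits for Cebpd and Maff and in 5 for Mt2A. The PIM kinase genes related to Pim3 passed the adjusted threshold on average below the fold minimum, at 0.99 (SE 0.25, edgeR adjusted p = 0.00792) for Pim1 and 0.60 (SE 0.11, edgeR adjusted p = 0.00104) for Pim2. Without CC-Ex replicate 5, Pim1 was at 1.03 (edgeR adjusted p = 0.00649) and was a DEG, and Pim2 was at 0.57. The acute-phase genes Lrg1 and Hp and the adhesion gene Icam1 had averaged Log2FC values of 0.10, 0.05 and -0.20, none of which passed. Across all 50 genes of these lists that were in the table, 10 were DEGs in the averaged effect, where 2.88% of all genes were, and 9 were without CC-Ex replicate 5. Without that rat, Bcl2l1 and Igf1r dropped out and Pim1 came in. In Ex vs. CC-Ex, where 0.516% of all genes were DEGs, 3 were with all rats and 0 without that rat. The count was 0 in 8 of the 12 fits of this comparison that left out 1 rat.

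**Figure D4:**
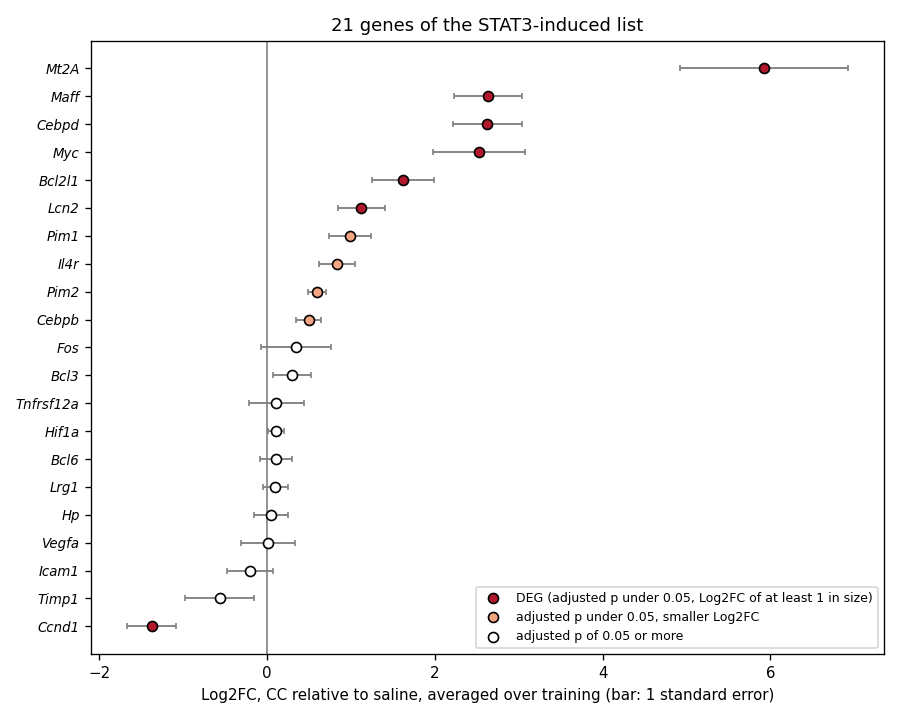
The Log2FC of CC relative to saline, averaged over training, is plotted for the 21 listed STAT3-induced genes, with 1 standard error as a bar and the fill of each point giving the outcome of the edgeR test. The list runs from Ccnd1 at -1.37 to Mt2A at 5.92, with 10 genes that passed the adjusted threshold above 0 and 1 below it, a threshold that 27.8% of all genes passed in this effect.

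Markers of other cells in the muscle were measured beside these genes. The summed CPM of 5 fibroblast markers had a median of 1299 in Sed (344.9 to 2243), 1662 in Ex (688.3 to 4111), 638.3 in CC-Sed (422.8 to 1253) and 386.3 in CC-Ex (132 to 1295). Col1a1 and Col3a1, the fibrillar collagen genes of that list, were downregulated DEGs in the averaged effect, at -1.64 (SE 0.47, edgeR adjusted p = 0.0145) and -1.46 (SE 0.43, edgeR adjusted p = 0.0169). The rest of the list did not pass, with Lum at -0.99 (edgeR adjusted p = 0.0976), Pdgfra at -0.37 (adjusted p = 0.326) and Dcn at -0.08 (adjusted p = 0.824). The summed CPM of 8 macrophage and leukocyte markers had medians of 52.9, 73.3, 81.9 and 49.4 in Sed, Ex, CC-Sed and CC-Ex, within ranges that overlapped, and none of the 8 passed the adjusted threshold. Of 5 slow-fibre markers, 3 were in the table, and their sum spanned 5.04 to 5338 CPM over all rats. Its medians were 793.3, 1370, 2819 and 2100 CPM in Sed, Ex, CC-Sed and CC-Ex. In Sed vs. CC-Sed, the Log2FC was 2.01 (SE 1.32) for Tnnc1, 1.64 (SE 1.25) for Tnni1 and 1.70 (SE 1.13) for Myl3. In Ex vs. CC-Ex, these genes were at 0.39, -0.13 and -0.08. None of them passed the adjusted threshold. The endothelial list had 5 of 6 genes in the table and a median averaged Log2FC of -0.10. Kdr alone passed there, at 0.60 (edgeR adjusted p = 0.00417), and the other 4 lay between -0.33 for Emcn and -0.01 for Egfl7. The adipocyte list had 3 of 5, with Adipoq lower (-1.09, edgeR adjusted p = 0.0456, a call that held in 7 of 24 fits with a rat removed). Cfd (-0.99, edgeR adjusted p = 0.123) and Fabp4 (-0.01, adjusted p = 0.98) did not pass. The satellite cell list had 2 of 3, with Myf5 at 0.65 (edgeR adjusted p = 0.0356) and Chodl at -0.49 (adjusted p = 0.267). The Schwann cell list had 2 of 3, and neither passed. The markers Myh1, Pecam1, Pax7, Plin1, Lep, Myh7 and Tnnt1 were not analysed here. The part of these cells in the results above was not tested.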

How the data were processed

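RNA from the left medial gastrocnemius of 24 rats was sequenced as poly-A libraries made with a stranded kit, from RNA whose integrity the authors had checked. After trimming with Trim Galore, the authors ran Salmon against the Ensembl transcripts of mRatBN7.2 and collapsed the result to genes using tximport. Their estimated counts were deposited rounded to whole numbers and without scaling for library size. No value is below 10, and the filter behind this is not given in the sources used here. Genes that Salmon splits between similar transcripts carry that uncertainty. Groups and replicate numbers were taken from the sample labels. Animals were not pooled.

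A model of 4 groups was fitted to the counts with edgeR 4.0.16 (TMM, robust quasi-likelihood F test) under R 4.3.3, with Benjamini-Hochberg adjustment over 10851 genes. The low-count filter removed no gene. The SE of a Log2FC equals its absolute value over the root of F. The averaged effect is the mean of both CC contrasts and the interaction is the exercised minus the sedentary one. Total counts of 37816239 to 50350554 per rat set the counting error. The SE includes the spread between animals, fitted for each gene over all 4 groups together. It is therefore not the spread of the groups compared. For Pim3 the SE was 0.36 in both CC comparisons, whereas the standard deviation of its log2 CPM within a group ran from 0.28 (Sed) to 1.05 (CC-Ex). Log2 CPM used a prior count of 2. Correlations were tested two-sided with 100000 permutations within groups over 36 pairs, since Socs3 was not in the analysed table. Scripts were tested on simulated data.

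The genes and lists were chosen with earlier results of these data known. The text names each of these genes, every list gene called in any contrast, up to 4 genes per list with the smallest p, and the genes most correlated with Socs2, Stat3 and Pim3. Icam1, Hp, Lrg1, Tnfrsf12a and Ghr were named after their values were seen. Some genes of the lists are not reported here by name. Lists of ligands, receptors, JAK and STAT genes, inhibitors, STAT3-induced genes, the growth hormone axis and cell markers were used. The alternatives were DESeq2 1.42.0, upper-quartile normalization, no filter, only the 12 rats compared, a replicate block, the library number as a covariate, limma-voom (limma 3.58.1) with quality weights, the adjusted p-value alone, and each rat left out. Library numbers were not balanced over the groups. They ran from 9 to 24 in Sed, 7 to 23 in Ex, 4 to 21 in CC-Sed and 1 to 14 in CC-Ex. With this covariate, the averaged effect was 2.73 for Il6r, 2.00 for Pim3 and -1.32 for Socs2.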

Additional observations from a re-analysis of the deposited data

Results flagged for a closer look

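Within a group of 6 rats, a gene was examined further when the gap between its highest or lowest rat and the next, as a share of the group's range in log2 CPM, exceeded Dixon's critical value for 6 samples. Chance alone gives about 1 in 20 such groups. Of 36 combinations of gene and group, 6 exceeded it. The Il6st level of CC-Ex replicate 5 was 280.0 CPM, against 96.3 CPM in the next rat. Socs2 was 24.8 CPM in Sed replicate 3, with the next rat at 11.7 CPM. Il6st was 93.0 CPM in Sed replicate 5, and the next was 70.5 CPM. On the low side, Il6r was 3.72 CPM in Ex replicate 2 (next 13.1), Osmr was 3.3 CPM in Ex replicate 3 (next 4.51) and Lifr was 21.9 CPM in Sed replicate 6 (next 34.5).

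Without Ex replicate 2, as without any other Ex rat, Il6r was not a DEG in Ex vs. CC-Ex. Without Sed replicate 3, the averaged Socs2 effect was -0.995 in place of -1.15 and no longer met the fold minimum, and the sedentary effect was -1.13 and met it. Without CC-Ex replicate 5, the averaged Il6st effect was 0.37 in place of 0.66.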

How the results depend on the processing

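In Ex vs. CC-Ex, the 2 DEGs among the 9 genes and the 3 among the list genes became 0 and 0 with upper-quartile normalization, with only the 12 rats compared and with a replicate block. Over all genes, the 56 DEGs of this comparison became 20, 1 and 1 under these, 29 with the library number as a covariate, 133 with limma-voom and 214 with DESeq2, and they were 2 without Ex replicate 2 and 251 without CC-Ex replicate 4. DESeq2 gave 6 list genes there. In Sed vs. CC-Sed, the 6 list genes became 11 with DESeq2 and 10 with limma-voom, and the DEGs over all genes, 195 at first, became 318 and 383 and with a rat left out reached 73 at the lowest, when CC-Sed replicate 6 was removed, and 400 at the highest, when replicate 4 of that group was. With the adjusted p-value alone, the averaged effect called 6 of the 9 genes in place of 3, and 20 list genes in place of 10. The 11 correlated pairs became 2 without CC-Ex replicate 5, an alternative chosen after seeing the data, as was the removal of each rat for single list and marker genes. The cause of these shifts was not tested. Upper-quartile normalization moved the median Log2FC of all genes to -0.06 in the 3 comparisons of CC with saline and left it between 0.00878 and 0.0242 in the others. What depth limits was not tested apart from the spread between rats.

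With a rat left out, the DEGs among the 9 genes numbered 2 to 5 in Sed vs. CC-Sed, 0 to 3 in Ex vs. CC-Ex and 2 to 4 in the averaged effect. The list genes numbered 3 to 10, 0 to 8 and 9 to 12. In the training comparisons and the interaction they were 0 to 0.

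Rats with the same replicate number did not deviate together on average (mean r of 0.0946, -0.172, -0.00945 and -0.231 for Sed with CC-Sed, Ex with CC-Ex, Sed with Ex and CC-Sed with CC-Ex). The single values in Sed with CC-Sed ran from -0.505 for replicate 5 to 0.357 for replicate 4. A mean over such values cannot decide whether the numbers pair the rats. With the replicate block, 4 of the 9 genes were DEGs in Sed vs. CC-Sed and 3 in the averaged effect.

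Every Log2FC that changed sign was one that did not pass the threshold. With a rat left out, the lowest and highest values in Sed vs. Ex were -0.0381 and 0.0718 for Stat3, -0.162 and 0.00465 for Lifr, -0.349 and 0.05 for Socs2, -0.13 and 0.0597 for Il6st and -0.155 and 0.00275 for Jak2. In Ex vs. CC-Ex they were -0.0619 and 0.0475 for Stat3. In CC-Sed vs. CC-Ex they were -0.159 and 0.0322 for Lifr, -0.313 and 0.177 for Jak2, -0.636 and 0.0212 for Pim3, -0.225 and 0.838 for Il6r and -0.371 and 0.284 for Il6st. For the interaction they were -0.106 and 0.0937 for Lifr, -0.256 and 0.237 for Jak2, -0.477 and 0.592 for Il6r and -0.322 and 0.333 for Il6st. Limma-voom turned Il6r to -0.337, Il6st to -0.244 and Jak2 to -0.249 in CC-Sed vs. CC-Ex, and to -0.519, -0.188 and -0.16 in the interaction. The replicate block turned Jak2 to -0.017 in CC-Sed vs. CC-Ex and the Il6r interaction to -0.164. The Lifr interaction was 0.0102 with DESeq2 and 0.0233 with the library number, and Stat3 in Ex vs. CC-Ex was -0.0659 with upper-quartile normalization.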

Other observations

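The genes whose log2 CPM followed Pim3 most closely over the 24 rats were Maff (Pearson r = 0.966), Spsb1 (0.965) and Pnpla2 (0.96). With group means subtracted, the values were 0.949, 0.939 and 0.913. For Socs2 they were Anxa10 (0.877), Hopx (0.863) and Slc25a30 (0.861), and with group means subtracted 0.74, 0.598 and 0.607. Stat3 was followed most closely by Dynlt1 (0.891), Cfl2 (0.875) and Chrd (0.853), with 0.89, 0.852 and 0.862 after subtraction. These genes were picked as the highest of the whole table, so the values are a description.

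Of the STAT3-induced genes, 16 had a RefSeq promoter, and the TTCNNNGAA element was in 3 of them, those of Icam1, Tnfrsf12a and Maff, beside 6.67% of the promoters of genes in the table and 8.87% of all promoters. In the Maff promoter its first base was base 6 after the start. Icam1 and Tnfrsf12a did not pass the adjusted threshold in the averaged effect (-0.20 and 0.11), whereas Maff was a DEG in each comparison of CC with saline.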
